A study of Mus musculus with 18 samples.

Results

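Wnt pathway genes were followed in mouse ovaries, in aged mice with and without a herbal medicine and in young mice. The list named 48 genes of the pathway, and a gene counted as a member when at least 10 expected counts were found in 6 or more of the 18 libraries. By that rule 43 of the 48 genes were members, out of 17131 genes of 55416 that met the same count rule. The 5 genes that missed it were the ligand genes Wnt2, Wnt2b and Wnt11 and the inhibitor genes Sfrp5 and Wif1. Their highest expected count in any library was 15, for Wnt2, and they were not tested. All 43 members entered the test, which covered 16959 genes.

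Each library came from 1 ovary of 1 wild-type Balb/c female, with 6 mice in each of 3 groups. The OC+SM group were 40 weeks old and took Samul-tang, a traditional Korean herbal medicine, orally at 2.5 g/kg. The OC group were also 40 weeks old and the YC group 8 weeks old, and both took distilled water. The labels state that OC and OC+SM mice were kept apart inside shared cages, and do not state which animals had a cage in common. Dosing ran for 4 weeks at 5 times a week. All groups, controls included, then had their follicles primed by 5 IU of mare serum gonadotropin. An ovulatory dose of 5 IU of hCG (human chorionic gonadotropin) came after 48 hours, and the ovaries were collected 16 hours from then. The values thus describe ovaries just after induced ovulation, not a natural cycle. Transcripts were counted from their 3′ ends. Library totals of expected counts, in units of 1000000, were 14.2 to 20.35 in OC+SM, 11.61 to 13.43 in OC and 9.05 to 14.15 in YC. Since the shallowest OC+SM library was deeper than the deepest OC library, depth goes with treatment, and the sources used here do not say how libraries were batched, so a batch and treatment cannot be told apart. Levels are in CPM, 1 count in 1000000 after scaling between libraries. Members together took 0.202% to 0.336% of the counts of an OC+SM library, 0.27% to 0.344% in OC and 0.236% to 0.271% in YC. The YC 3 and OC+SM 6 libraries were the least like the other libraries of their groups, with a mean correlation of log2 CPM over genes of 0.964 and 0.963, against 0.969 to 0.977 for the other libraries.

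Wnt proteins are secreted ligands that carry a lipid added by Porcn and reach the cell surface with the carrier Wls. They bind Frizzled receptors (Fzd genes) and the co-receptors Lrp5 and Lrp6, which stops a complex of Axin, Apc, Gsk3b and casein kinase from destroying β-catenin (Ctnnb1), and β-catenin then works with the DNA-binding TCF and LEF factors. R-spondins, through Lgr receptors, protect Frizzleds from removal by Znrf3 and Rnf43, while several Dkk and Sfrp proteins block signalling outside the cell. In the mouse, Wnt4 is needed to form the female gonad, and several pathway genes are made by granulosa and luteal cells.

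In OC against YC ovaries, Wnt4, Wnt5a, Wls and Fzd4 rose, while Fzd2, Lrp5, Tcf7l1, Tcf7l2, Dkk3 and Sfrp2 fell. That is 4 of 43 members higher and 6 lower, or 23.3% called at an edgeR adjusted p under 0.05, beside 11.3% of all genes tested (5.25% higher and 6.03% lower). The median log2 fold change was -0.02 over the members and 0.01 over all genes tested. Of the members, 1 changed at least 2-fold on the fitted scale, Sfrp2. Wnt4, Wnt5a, Wls and Fzd1 rose in OC+SM against YC ovaries, while Fzd3, Lrp5, Apc, Tcf7l1, Tcf7l2 and Dkk3 fell. These were again 4 higher and 6 lower, or 23.3%, beside 22.4% of all genes tested (11.5% higher and 10.9% lower), so the members' share was near that of genes at large. The medians were -0.04 over the members and 0.00 over all genes. Both comparisons use the same YC libraries. In whole ovaries, fewer cells of a type and less RNA per cell cannot be told apart.

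No member passed the edgeR test in OC+SM against OC ovaries, where 1.04% of all genes tested were called (0.548% higher and 0.489% lower, 176 genes). At an unadjusted p under 0.05 there were 8 of the 43 members (18.6%), beside 2861 of all genes tested (16.9%). DESeq2 called 1 member (Fzd4) and 663 genes, and limma on log2(TPM + 1) of the deposited values called 1 (Tcf7l2) and 183. The median log2 fold change of the members was -0.01, beside 0.01 over all genes. Single libraries moved these counts: without OC+SM 4, 3 members (Fzd1, Fzd3 and Fzd4) and 598 genes were called, and without OC+SM 3, 0 members and 32 genes. The gene count was 99, 101, 76, 74 and 93 without OC 1, OC 2, OC 3, OC 4 and OC 6, and 60, 106 and 317 without OC+SM 1, OC+SM 2 and OC+SM 5, each with 0 members called. With all libraries thinned to the depth of the shallowest, edgeR called 170 genes and 0 members. Of the 43 members, 13 were called in at least 1 of the 3 comparisons and 30 in none.

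**Figure D1:**
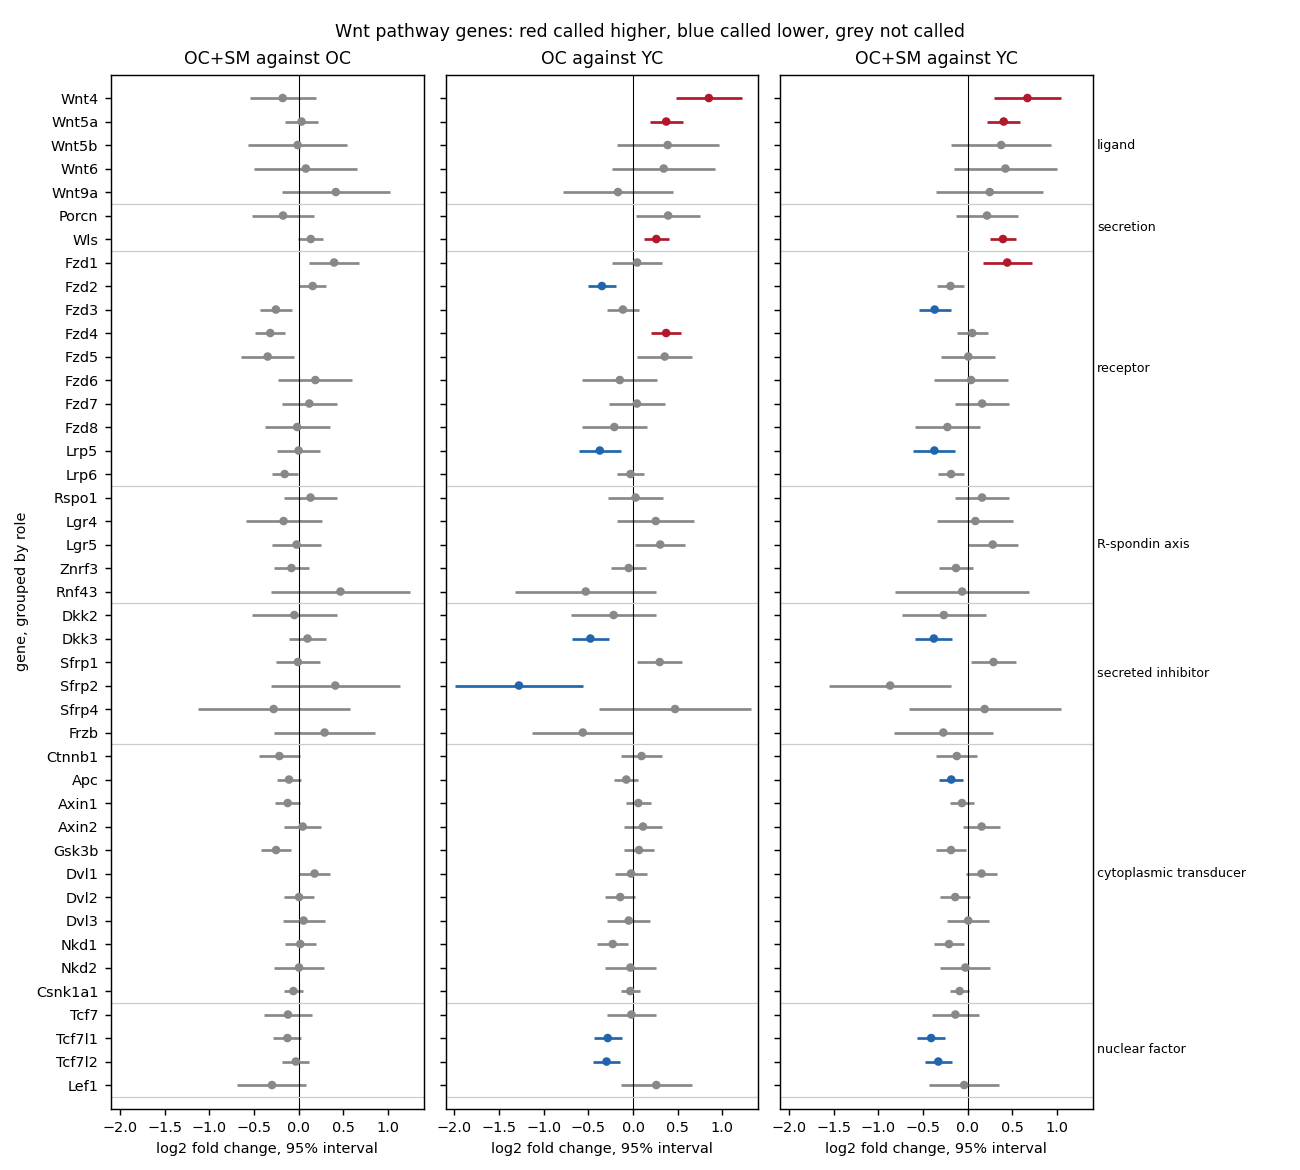
Log2 fold change of the 43 tested Wnt pathway genes in 3 comparisons (x axis, with 95% intervals), grouped by role down the y axis. Red points passed the edgeR test as higher, blue as lower, and grey did not pass; the left panel, OC+SM against OC, has no coloured point, while each panel against YC has 4 red and 6 blue.

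RefSeq promoter windows, from 250 bases before to 50 bases after a start, were found for 32 of the 48 listed genes (42 windows) and for 7 of the 13 called members. Their build is GRCm38.p6, not the GRCm39 of the counts. Of the called members, Wnt4 is the ligand that rose furthest against YC and Wls is the carrier, which also rose. Tcf7l1 is the nuclear factor that fell furthest in OC+SM against YC, and Fzd1 is the called member whose window holds a TCF/LEF core. The windows of these 4 members are shown. They lie at chr4:137277385-137277684 (plus strand), chr3:159839400-159839699 (plus strand), chr6:72788996-72789295 (minus strand) and chr5:4758167-4758466 (minus strand), each 5′ to 3′ along its gene. Capitals mark the 1 motif match.
Wnt4: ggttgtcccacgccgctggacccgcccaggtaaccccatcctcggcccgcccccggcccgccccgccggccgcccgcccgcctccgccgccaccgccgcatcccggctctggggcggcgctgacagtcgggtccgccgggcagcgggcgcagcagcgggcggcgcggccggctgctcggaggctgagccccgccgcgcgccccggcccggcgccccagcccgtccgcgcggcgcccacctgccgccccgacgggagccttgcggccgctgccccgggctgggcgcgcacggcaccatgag
Wls: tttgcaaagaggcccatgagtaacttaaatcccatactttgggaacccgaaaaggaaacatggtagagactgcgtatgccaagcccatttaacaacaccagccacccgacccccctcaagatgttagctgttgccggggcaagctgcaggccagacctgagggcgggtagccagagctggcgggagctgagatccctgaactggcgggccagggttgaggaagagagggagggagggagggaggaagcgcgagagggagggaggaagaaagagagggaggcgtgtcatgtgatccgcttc
Tcf7l1: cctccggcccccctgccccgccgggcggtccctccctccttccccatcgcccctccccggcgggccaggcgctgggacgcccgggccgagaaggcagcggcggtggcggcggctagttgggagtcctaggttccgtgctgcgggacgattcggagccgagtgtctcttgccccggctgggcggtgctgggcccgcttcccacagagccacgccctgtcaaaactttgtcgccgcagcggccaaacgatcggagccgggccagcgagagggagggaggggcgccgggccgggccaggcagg
Fzd1: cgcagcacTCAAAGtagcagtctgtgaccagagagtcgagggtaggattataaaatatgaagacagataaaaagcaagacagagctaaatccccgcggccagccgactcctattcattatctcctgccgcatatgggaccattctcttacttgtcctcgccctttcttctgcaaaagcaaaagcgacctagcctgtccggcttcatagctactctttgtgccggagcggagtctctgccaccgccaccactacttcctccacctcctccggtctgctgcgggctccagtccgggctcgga
The Wnt4 window was 84.3% G or C with 51 CpG, the Tcf7l1 window 75.3% with 34, the Wls window 58.0% with 11 and the Fzd1 window 54.0% with 16. Medians were 65.8% and 23.5 CpG over the windows of the listed genes, beside 52.7% and 7 over all 32851 windows. The core CTTTGA, which TCF and LEF factors bind and which reads TCAAAG on the other strand, was found on either strand in 6 of the 42 windows of listed genes (14.3%), beside 16% of all windows. Besides Fzd1, a window of each of Frzb, Gsk3b, Lef1 and Wnt5b held it, as did a window of Wnt11, which missed the count rule. Lef1, Wnt5b and Wnt11 also had windows without it. The NR5A motif AAGGTCA lay in 2.38% of these windows, in Tcf7 alone, beside 4.72% of all. The cyclic AMP response element TGACGTCA lay in 2.38%, in Dvl1 alone, beside 1.79%. These matches are letters in a window and say nothing of binding.

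Wnt4 had the largest log2 fold change above 0 of the members in OC against YC. Wnt4 stood at 324.6, 699.0 and 784 CPM in OC+SM (lowest, median and highest of 6), at 634, 734.5 and 808 CPM in OC and at 276, 409 and 502 CPM in YC. Every OC library lay above every YC library, and 5 of 6 OC+SM libraries did. The exception was OC+SM 6 at 324.6 CPM, below 5 of the 6 YC libraries. Wnt4 averaged 733 ± 61.8 CPM in OC and 407 ± 75.1 CPM in YC (SD, n = 6 each), a log2 fold change of 0.85 ± 0.18 (SE; edgeR adjusted p = 0.0043). In OC+SM it averaged 647.5 ± 172 CPM, 0.67 ± 0.18 above YC on the log2 scale (edgeR adjusted p = 0.0117). Without OC+SM 6 that difference was 0.81, and without YC 3, the lowest YC library, the OC difference was 0.76. Both calls against YC held in all 22 alternatives. OC+SM against OC gave -0.18 ± 0.17 (edgeR adjusted p = 0.66), and -0.04 without OC+SM 6.

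Wnt5a, a ligand best known for signalling that does not pass through β-catenin, was higher in aged ovaries by a smaller margin. Its levels were 87.5, 98.4 and 118 CPM in OC+SM, 91.4, 98.5 and 109.7 CPM in OC and 61.4, 78.3 and 93.0 CPM in YC (lowest, median and highest). The highest YC library, YC 3, overlapped the aged groups, and 4 of 6 libraries of each aged group lay above all YC libraries. Wnt5a gave a log2 fold change of 0.37 ± 0.09 in OC against YC (edgeR adjusted p = 0.00717) and 0.40 ± 0.09 in OC+SM against YC (adjusted p = 0.00223). With limma on deposited TPM the OC difference was 0.30 and no longer passed, and over its 22 alternatives the adjusted p ran from 0.000701 to 0.0812. OC+SM against OC gave 0.03 ± 0.09.

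The other 3 ligands tested were not called in any comparison. Wnt6 averaged 113.6 CPM in OC+SM (79.9 to 130.8), 107.4 CPM in OC (80.9 to 135.7) and 84.4 CPM in YC (21.6 to 107.3). Its YC spread came from the YC 3 library at 21.6 CPM, with the other YC libraries at 91.3 to 107.3 CPM. Without YC 3, the Wnt6 log2 fold change in OC against YC was 0.15, and 0.34 with it. Wnt5b and Wnt9a were low, with group means of 1.29 to 1.69 CPM and 1.903 to 2.55 CPM, and their intervals in OC against YC, -0.19 to 0.96 and -0.79 to 0.45, were wide.

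Wls, the carrier that takes Wnt proteins to the cell surface, was higher in every aged library than in any YC library. It stood at 132.9, 146 and 153 CPM in OC+SM, at 122, 130.3 and 139 CPM in OC and at 88.5, 114 and 122 CPM in YC. The gap to the highest YC library was narrow in OC and wider in OC+SM. Its log2 fold change was 0.26 ± 0.07 in OC against YC (edgeR adjusted p = 0.0138) and 0.40 ± 0.07 in OC+SM against YC (adjusted p = 0.000244). With limma on deposited TPM the OC difference was 0.21 and did not pass, and the adjusted p ran from 0.00506 to 0.0674 over the alternatives. In OC+SM against OC, Wls gave 0.14 ± 0.07 (adjusted p = 0.315), with 4 of 6 OC+SM libraries above all OC libraries. Porcn, the enzyme that adds the lipid to Wnt proteins, was not called, at 0.39 ± 0.17 in OC against YC (adjusted p = 0.156) and 0.22 ± 0.17 in OC+SM against YC.

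Non-overlapping groups put these members in context. In OC against YC, 3 members lay wholly above (Wnt4, Wls and Fzd4) and 1 wholly below (Dkk3), where 7.38% of all genes tested did not overlap (3.21% higher and 4.17% lower). Wls lay wholly above and Tcf7l1 and Tcf7l2 wholly below in OC+SM against YC, where 9.5% of all genes did not overlap (4.85% higher and 4.65% lower). Fzd4 lay wholly below in OC+SM against OC, where 1.53% of all genes did not overlap (0.678% lower).

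**Figure D2:**
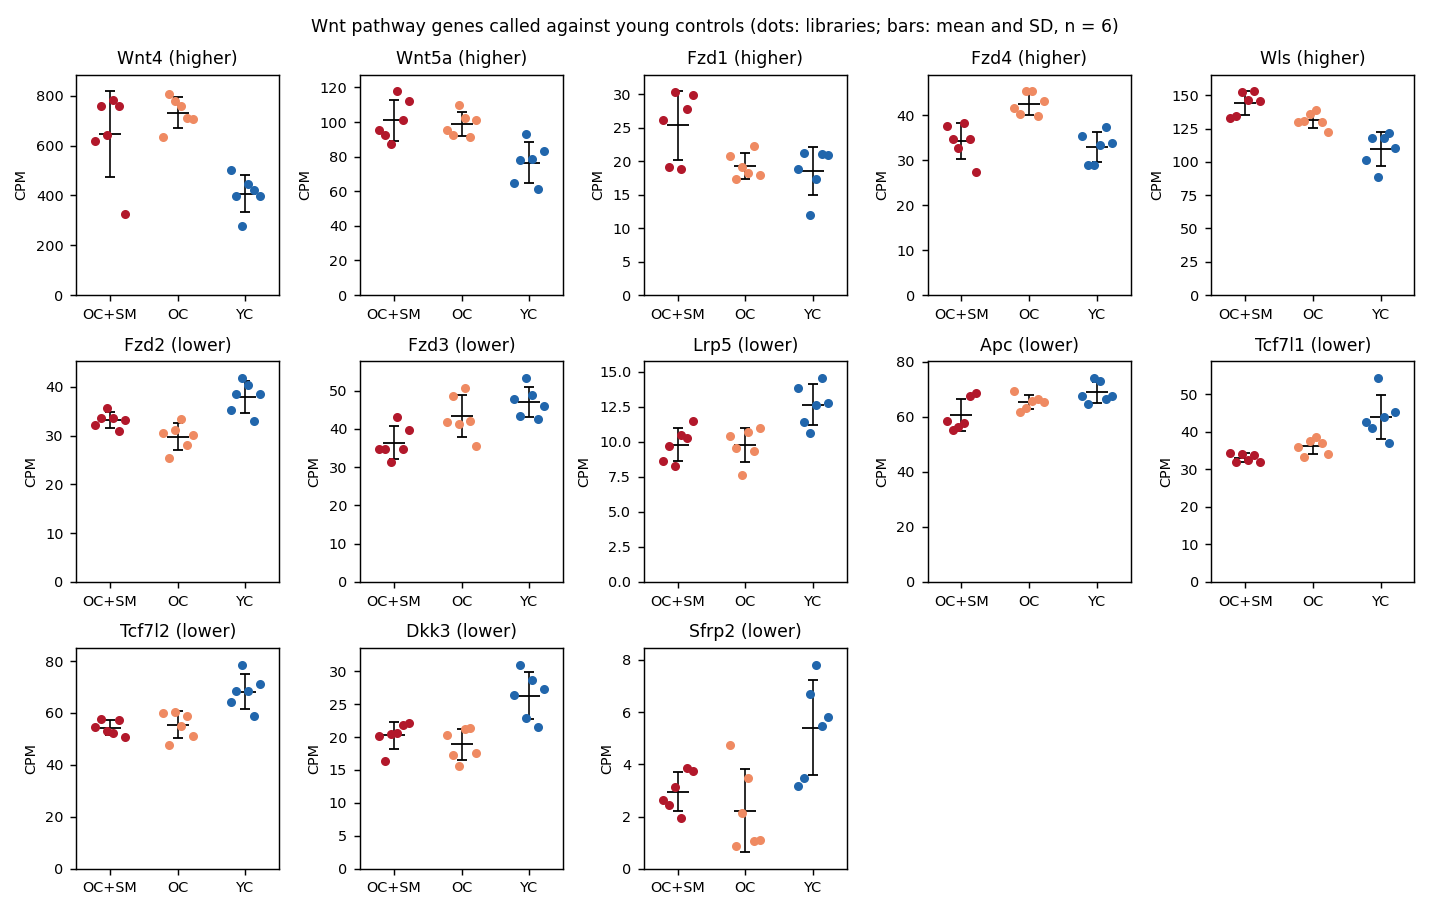
CPM (y axis, from 0) of the 13 Wnt pathway genes called against YC, in OC+SM, OC and YC libraries (x axis). Dots are libraries and bars mean and SD (n = 6). Wls, at 132.9 CPM or more in OC+SM and 122 CPM or more in OC, lies above all YC libraries, and OC+SM 6 is the low Wnt4 dot at 324.6 CPM.

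Cell type markers moved along with age, and their part in these results was not tested. Marker counts here and below stand beside 11.3% of all genes tested called by edgeR in OC against YC and 22.4% in OC+SM against YC. Of 8 luteal marker genes, 2 were called higher and none lower in OC against YC, and their summed level was 14310 to 17040 CPM in OC+SM, 14070 to 16550 CPM in OC and 9562 to 12480 CPM in YC. The genes called were Cyp11a1 and Hsd3b1, which make progesterone, at 0.55 and 0.60 in OC+SM against YC and 0.45 and 0.38 in OC against YC on the log2 scale. These 2 genes, with OC means of 6258 and 4657 CPM, held most of the luteal sum. Star, Akr1c18 and Onecut2 gave 0.18 ± 0.21, 2.01 ± 0.65 and 1.29 ± 0.61 in OC against YC, none called. In OC+SM against OC they gave 0.10, -1.02 and -0.83, also not called. The luteal receptor genes Lhcgr, Ptgfr and Prlr were not called in OC+SM against YC, at -0.25, -0.22 and 0.00, and in OC against YC they gave 0.27, 0.42 and 0.34, also not called. Of 11 granulosa genes tested, 6 were called lower. Sums over the 12 listed granulosa genes were 594 to 1131 CPM in OC+SM, 742 to 1158 CPM in OC and 1219 to 1625 CPM in YC. Of 10 oocyte genes 9 were called lower, with sums of 41.0 to 78.0 CPM in OC+SM, 41.5 to 70.8 CPM in OC and 122.7 to 192 CPM in YC. No luteal, granulosa or oocyte marker was at 0 in any group.

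**Figure D3:**
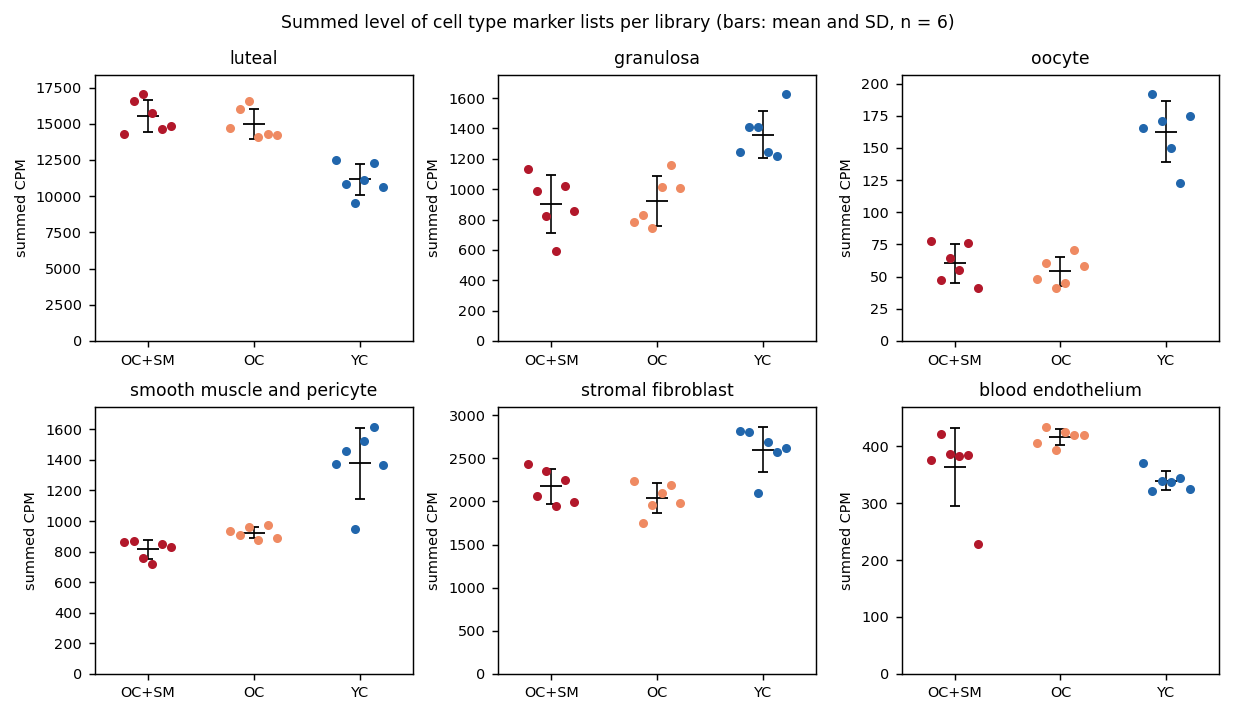
Summed CPM (y axis, from 0) of 6 marker gene lists in OC+SM, OC and YC libraries (x axis), with dots for libraries and bars for mean and SD (n = 6). Luteal sums lie above the YC range in both aged groups (14070 CPM or more), oocyte sums below it (78.0 CPM or less), and the low OC+SM dot in the blood endothelium panel is OC+SM 6 at 228 CPM.

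Frizzled receptor genes moved in different directions. Fzd4, a receptor known to be needed for corpus luteum formation in mice and for vessels in the retina, stood at 27.3, 34.7 and 38.3 CPM in OC+SM, at 39.7, 42.4 and 45.4 CPM in OC and at 28.9, 33.5 and 37.4 CPM in YC. The OC range lay wholly above both other groups, which overlapped each other. The log2 fold change was 0.37 ± 0.08 in OC against YC (edgeR adjusted p = 0.00404), 0.05 ± 0.08 in OC+SM against YC (adjusted p = 0.703) and -0.32 ± 0.08 in OC+SM against OC (adjusted p = 0.0546). The last of these was the member nearest to a call in that comparison, and over its 22 alternatives the adjusted p ran from 0.0136 to 0.12. It passed under DESeq2 (-0.32), without YC 3 and OC+SM 6 (-0.26) and without OC+SM 4 (-0.35). The same OC libraries enter the age and the Samul-tang difference.

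Blood endothelial markers had the same order of group medians as Fzd4. Their summed level was 228 to 422 CPM in OC+SM, 393 to 434 CPM in OC and 322 to 370 CPM in YC, and OC+SM 6 was the lowest library in that sum and for Fzd4. The next OC+SM library stood at 376 CPM in that sum, above all YC libraries. For Fzd4, only 2 OC+SM libraries lay above all YC libraries. Of these 9 genes, 3 were called higher in OC against YC, 2 in OC+SM against YC and 0 by edgeR in OC+SM against OC, where 2 had an unadjusted p under 0.05 and neither DESeq2 nor limma on TPM called any. None was at 0 in any group, and the part of these markers in the Fzd4 values was not tested.

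Fzd1, a Frizzled gene known to be induced in rodent follicles around ovulation, was high in 4 OC+SM libraries. It stood at 18.8, 27.0 and 30.3 CPM in OC+SM, at 17.3, 18.6 and 22.3 CPM in OC and at 11.9, 19.9 and 21.3 CPM in YC. The 4 OC+SM libraries lay above all OC and all YC libraries, and the other 2, at 18.8 and 19.1 CPM, lay among them. Fzd1 gave a log2 fold change of 0.44 ± 0.13 in OC+SM against YC (edgeR adjusted p = 0.0194), 0.05 ± 0.14 in OC against YC (adjusted p = 0.887) and 0.40 ± 0.13 in OC+SM against OC (adjusted p = 0.121). The call against YC was lost without OC+SM 3 (0.38), without YC 3 and OC+SM 6 (0.30) and with deposited TPM and a pseudocount of 1 (0.34) or 0.1 (0.41), and over the alternatives its adjusted p ran from 0.00618 to 0.072. Without OC+SM 4, Fzd1 passed against OC as well (0.47), where the adjusted p ran from 0.0452 to 0.275.

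Fzd2 and Fzd3 were lower in aged ovaries, each in 1 comparison. Fzd2 stood at 31.0, 33.4 and 35.6 CPM in OC+SM, at 25.4, 30.3 and 33.3 CPM in OC and at 32.9, 38.5 and 41.9 CPM in YC, with 5 of 6 OC libraries below all YC libraries. It fell by 0.35 ± 0.07 on the log2 scale in OC against YC (edgeR adjusted p = 0.0028). OC+SM against YC gave -0.19 ± 0.07 (adjusted p = 0.0654), which passed in 3 of 22 alternatives. Fzd3 stood at 31.4, 34.7 and 43.2 CPM in OC+SM, at 35.6, 42.0 and 50.6 CPM in OC and at 42.6, 46.8 and 53.4 CPM in YC. It fell by 0.37 ± 0.09 in OC+SM against YC (edgeR adjusted p = 0.00387), with 5 of 6 OC+SM libraries below all YC libraries. The difference was -0.11 ± 0.09 in OC against YC and -0.25 ± 0.09 in OC+SM against OC (adjusted p = 0.131), where Fzd3 passed without OC+SM 4 (-0.31) and the adjusted p ran from 0.0492 to 0.287 over the alternatives.

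Of the co-receptors, Lrp5 was lower in both aged groups. It stood at 8.28, 9.99 and 11.5 CPM in OC+SM, at 7.66, 10.02 and 10.98 CPM in OC and at 10.6, 12.7 and 14.6 CPM in YC, and the ranges overlapped. It fell by 0.37 ± 0.11 on the log2 scale in OC+SM against YC (edgeR adjusted p = 0.0202) and by 0.37 ± 0.12 in OC against YC (adjusted p = 0.0368). OC+SM against OC gave 0.00 ± 0.12, with an interval of -0.24 to 0.24. The OC call held in 11 of 22 alternatives, with an adjusted p from 0.0163 to 0.104. It was lost without each of OC 2, OC 3, OC 5, YC 1, YC 4, YC 5 and YC 6 (-0.37, -0.31, -0.36, -0.35, -0.37, -0.33 and -0.37), with no filter (-0.36), with libraries thinned to 1 depth (-0.38) and with deposited TPM and a pseudocount of 1 (-0.24) or 0.1 (-0.33). The OC+SM call on Lrp5 was lost without OC+SM 3 (-0.33) and with no filter (-0.36), and had an adjusted p from 0.00622 to 0.054. Lrp6 was not called, at -0.18 ± 0.07 in OC+SM against YC (adjusted p = 0.065), and passed there in 5 of 22 alternatives. The other 4 Frizzled genes tested, Fzd5, Fzd6, Fzd7 and Fzd8, were not called, with log2 fold changes from -0.35 to 0.35 over the 3 comparisons. The extremes were both Fzd5, at 0.35 ± 0.15 in OC against YC (adjusted p = 0.134) and -0.35 ± 0.15 in OC+SM against OC (adjusted p = 0.22).

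Of 5 genes of the R-spondin axis, 0 were called in any comparison by edgeR, by DESeq2 or by limma on log2(TPM + 1). Among all genes tested edgeR called 1.04% in OC+SM against OC, 11.3% in OC against YC and 22.4% in OC+SM against YC. With only 5 genes, 0 calls cannot be told from those shares. Lgr5 alone of the 5 had an unadjusted edgeR p under 0.05, in both comparisons with YC. Rspo1, a secreted activator needed for ovary formation in the mouse, averaged 9.003 ± 1.48 CPM in OC+SM, 8.20 ± 1.31 CPM in OC and 8.08 ± 1.57 CPM in YC (SD, n = 6 each). Lgr5, an R-spondin receptor and a widely used readout of β-catenin signalling, averaged 16.0 ± 3.56 CPM in OC+SM, 16.3 ± 2.68 CPM in OC and 13.2 ± 1.897 CPM in YC. Its log2 fold change in OC against YC was 0.30 ± 0.14, with an interval of 0.02 to 0.59 and an edgeR adjusted p of 0.171. Lgr4 gave 0.25 ± 0.20, Znrf3 -0.05 ± 0.09 and Rnf43 -0.53 ± 0.38 in OC against YC. In OC+SM against OC the 5 genes lay between -0.17 and 0.47.

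Among genes grouped here as secreted inhibitors, Dkk3 and Sfrp2 were lower in aged ovaries. Whether Dkk3 blocks the pathway in these ovaries was not tested. Dkk3, a divergent member of the Dickkopf family, stood at 16.4, 20.5 and 22.1 CPM in OC+SM, at 15.6, 18.9 and 21.4 CPM in OC and at 21.5, 26.8 and 31.0 CPM in YC. All OC libraries lay below all YC libraries, by a narrow gap, as did 4 of 6 OC+SM libraries. It fell by 0.38 ± 0.10 on the log2 scale in OC+SM against YC (edgeR adjusted p = 0.00855) and by 0.48 ± 0.10 in OC against YC (adjusted p = 0.00271), and both calls held in all 22 alternatives.

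Sfrp2, a secreted Frizzled-related inhibitor, was low and uneven. It stood at 1.94, 2.87 and 3.85 CPM in OC+SM, at 0.856, 1.63 and 4.74 CPM in OC and at 3.17, 5.64 and 7.82 CPM in YC, and its lowest library held 10.5 expected counts. The OC libraries varied most, with a coefficient of variation of 70.6%, and the groups overlapped. In OC against YC it fell by 1.28 ± 0.35 on the log2 scale (edgeR adjusted p = 0.0178), and OC+SM against YC gave -0.87 ± 0.33 (adjusted p = 0.0629), which passed in 5 of 22 alternatives. The difference between these contrasts, OC+SM against OC, was 0.41 ± 0.35 (adjusted p = 0.591).

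Stromal, smooth muscle and theca markers moved in the same comparison as Dkk3 and Sfrp2. Of 10 smooth muscle and pericyte genes, 5 were called lower in OC against YC, with sums of 720 to 872 CPM in OC+SM, 878 to 972 CPM in OC and 946 to 1615 CPM in YC. Of 8 stromal fibroblast genes, 3 were called lower, with sums of 1953 to 2436 CPM in OC+SM, 1754 to 2239 CPM in OC and 2104 to 2815 CPM in YC. Of 6 theca and interstitial genes, 4 were called lower, with sums of 358.5 to 721 CPM in OC+SM, 358 to 430.3 CPM in OC and 419 to 1431 CPM in YC. The YC 3 library set the low end of the YC smooth muscle and stromal sums, where the next YC libraries stood at 1365 and 2571 CPM. It also set the high end of the YC theca sum, with the next YC library at 532 CPM. No marker of these 3 lists was at 0 in any group, and their part in the values of the inhibitor genes was not tested.

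The other inhibitors were not called. Sfrp4, a gene known to be induced by hCG in rodent granulosa and luteal cells, stood at 65.2, 594 and 870.2 CPM in OC+SM, at 518, 567 and 969.8 CPM in OC and at 392, 447 and 604 CPM in YC. OC+SM 6, at 65.2 CPM, lay far below the other OC+SM libraries, at 433.7 CPM or more, and below every YC library. Its log2 fold changes, 0.19 ± 0.40 in OC+SM against YC and 0.47 ± 0.40 in OC against YC, did not pass, nor did -0.28 in OC+SM against OC. Without OC+SM 6 they were 0.42 in OC+SM against YC and -0.04 in OC+SM against OC. Over the alternatives the OC+SM against YC value of Sfrp4 ran from -0.16 to 0.42, below 0 with the replicate block and on both TPM scales. Sfrp1 averaged 122.4 ± 16.4 CPM in OC+SM, 123.1 ± 14.6 CPM in OC and 99.98 ± 19.1 CPM in YC, and its OC against YC difference was 0.30 ± 0.12 (edgeR adjusted p = 0.124), or 0.20 without YC 3. Frzb (-0.56 ± 0.27) and Dkk2 (-0.22 ± 0.23) did not pass in OC against YC either.

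**Figure D4:**
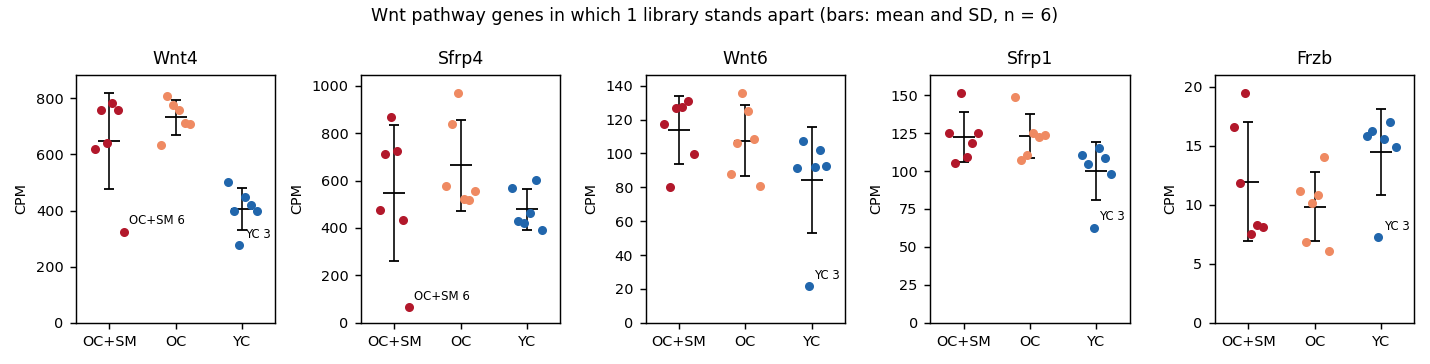
CPM (y axis, from 0) of 5 Wnt pathway genes in which a single library lies far from its group, in OC+SM, OC and YC libraries (x axis), with dots for libraries and bars for mean and SD (n = 6). OC+SM 6 is the low dot for Wnt4 (324.6 CPM) and Sfrp4 (65.2 CPM), and YC 3 for Wnt6 (21.6 CPM), Sfrp1 (62.7 CPM) and Frzb (7.24 CPM).

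Of 11 cytoplasmic transducers, edgeR called 1, in OC+SM against YC (9.09%, beside 22.4% of all genes), where limma on log2(TPM + 1) called 3. The edgeR call was Apc, the scaffold of the β-catenin destruction complex. It stood at 55.4, 58.2 and 68.8 CPM in OC+SM, at 61.8, 65.7 and 69.5 CPM in OC and at 64.6, 67.8 and 74.2 CPM in YC, and the groups overlapped. Apc fell by 0.18 ± 0.06 on the log2 scale in OC+SM against YC (edgeR adjusted p = 0.0411). That call held in 10 of 22 alternatives, with values from -0.66 to -0.16 and an adjusted p from 0.0125 to 0.147. It was lost without each of OC+SM 1, 2, 3 and 4 (-0.18, -0.16, -0.17 and -0.17) and without each of YC 1, 3, 4 and 6 (-0.19, -0.16, -0.17 and -0.19), as well as with the replicate number as a block (-0.19), with no filter (-0.17), in the fit of only the 12 libraries compared (-0.18) and with libraries thinned to 1 depth (-0.17). The value of -0.66 came from deposited TPM with a pseudocount of 0.1.

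Axin2, a direct target of β-catenin and the usual readout of the pathway, averaged 17.4 ± 1.69 CPM in OC+SM, 16.8 ± 1.52 CPM in OC and 15.5 ± 2.32 CPM in YC (SD, n = 6 each). Its log2 fold change was 0.16 ± 0.10 in OC+SM against YC (95% interval -0.05 to 0.36), 0.11 ± 0.10 in OC against YC (-0.10 to 0.32) and 0.05 ± 0.10 in OC+SM against OC (-0.16 to 0.25), and none passed. These intervals leave room for modest change, though in OC+SM against YC less for a fall than for a rise. Nkd1, a feedback inhibitor of Dishevelled, gave -0.21 ± 0.08 in OC+SM against YC (edgeR adjusted p = 0.07) and -0.23 ± 0.08 in OC against YC (adjusted p = 0.08). Without YC 3 both passed, at -0.24 and -0.26. Over the alternatives the adjusted p ran from 0.0405 to 0.201 in OC+SM against YC and from 0.0355 to 0.226 in OC against YC.

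The kinase genes and the β-catenin gene were not called by edgeR with all libraries. Gsk3b, which marks β-catenin for destruction, averaged 218 ± 28.9 CPM in OC+SM, 259 ± 11.9 CPM in OC and 248 ± 26.7 CPM in YC. OC+SM against OC gave -0.25 ± 0.08 (edgeR adjusted p = 0.104), with 5 of 6 OC+SM libraries below all OC libraries. Gsk3b gave -0.19 in OC+SM against YC, and without OC+SM 5 it passed at -0.23, over an adjusted p of 0.0433 to 0.318 in the alternatives. Ctnnb1 averaged 27.8 ± 3.80 CPM in OC+SM, 32.3 ± 3.98 CPM in OC and 30.2 ± 5.42 CPM in YC, and its 3 log2 fold changes ran from -0.22 to 0.09. Without YC 3 and OC+SM 6, Ctnnb1 passed in OC+SM against YC at -0.27, where its adjusted p ran from 0.0469 to 0.861. Csnk1a1, casein kinase 1 alpha, was among the least variable members, with a coefficient of variation of 2.6% in OC, and its log2 fold changes in edgeR ran from -0.09 to -0.03. On both deposited TPM scales limma called Csnk1a1 lower in OC+SM against YC, at -0.33 on each, and its adjusted p ran from 0.00629 to 0.509. Axin1, Dvl1, Dvl2, Dvl3 and Nkd2 were not called by edgeR either, with values from -0.14 to 0.18. Dvl2 was called lower in OC+SM against YC by limma on log2(TPM + 1), at -0.25, and on log2(TPM + 0.1), at -0.28, with an adjusted p from 0.0186 to 0.425 over its alternatives.

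Of the 4 nuclear factors, Tcf7l1 and Tcf7l2 were lower in both aged groups. Tcf7l1, which mostly acts as a repressor, stood at 31.9, 33.2 and 34.4 CPM in OC+SM, at 33.3, 36.5 and 38.7 CPM in OC and at 37.0, 43.3 and 54.4 CPM in YC. No OC+SM library reached the YC range, and 4 of 6 OC libraries lay below it. It fell by 0.41 ± 0.08 on the log2 scale in OC+SM against YC (edgeR adjusted p = 0.000438) and by 0.28 ± 0.08 in OC against YC (adjusted p = 0.0148). OC+SM against OC gave -0.12 ± 0.08 (adjusted p = 0.42).

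Tcf7l2, a main partner of β-catenin in many tissues, stood at 50.6, 53.8 and 57.8 CPM in OC+SM, at 47.6, 56.9 and 60.5 CPM in OC and at 58.9, 68.3 and 78.6 CPM in YC. All OC+SM libraries and 4 of 6 OC libraries lay below all YC libraries. It fell by 0.33 ± 0.07 in OC+SM against YC (edgeR adjusted p = 0.00206) and by 0.30 ± 0.07 in OC against YC (adjusted p = 0.00771), and both calls held in all 22 alternatives. In OC+SM against OC it gave -0.03 ± 0.07, while limma on log2(TPM + 0.1) gave -0.34 and a call, and the adjusted p ran from 0.0364 to 0.984 over the alternatives. With TPM and a pseudocount of 0.1 the OC+SM against YC value was -0.71. Tcf7 and Lef1, both also targets of the pathway, were not called. Lef1 averaged 4.99 ± 1.32 CPM in OC+SM, 6.13 ± 1.51 CPM in OC and 5.14 ± 0.780 CPM in YC, and Tcf7 averaged 7.55 ± 0.555 CPM in OC+SM, 8.20 ± 1.64 CPM in OC and 8.30 ± 0.787 CPM in YC.

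A wider list of 131 other pathway genes was read from the same fit, and 104 of them were tested. In OC against YC 6 were called higher and 7 lower (12.5%, beside 11.3% of all genes), and in OC+SM against YC 10 higher and 20 lower (28.8%, beside 22.4%). In OC+SM against OC edgeR called 0 and 18 (17.3%) had an unadjusted p under 0.05, beside 16.9% of all genes. DESeq2 called 6 there, beside 663 of all genes, and limma on log2(TPM + 1) 1, beside 183. The median log2 fold changes were -0.02 in OC+SM against OC, 0.00 in OC against YC and -0.07 in OC+SM against YC.

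Rspo2, an R-spondin that mouse oocytes are known to make, was the largest called fall in this list besides Dkkl1. It stood at 0.800, 1.27 and 1.61 CPM in OC+SM, at 0.477, 1.12 and 1.88 CPM in OC and at 2.17, 4.22 and 4.96 CPM in YC, so that both aged groups lay wholly below YC. The log2 fold change was -1.63 ± 0.29 in OC+SM against YC (edgeR adjusted p = 0.000272) and -1.80 ± 0.30 in OC against YC (adjusted p = 0.000204). The oocyte marker sums given above were lower in the same groups, and their part was not tested. Dkkl1, a Dickkopf-like gene, gave -1.78 ± 0.50 in OC+SM against YC and -1.95 ± 0.53 in OC against YC, at mean levels of 0.366, 0.323 and 1.31 CPM in OC+SM, OC and YC.

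Wnt10b, a ligand outside the member list, had the same order of group medians as Wnt4. It stood at 29.5, 99.0 and 122 CPM in OC+SM, at 72.4, 108 and 139 CPM in OC and at 40.5, 45.2 and 65.8 CPM in YC. OC+SM 6 was again the lowest library of its group, below all YC libraries, while the other 5 OC+SM libraries and all OC libraries lay above all YC libraries. Wnt10b gave log2 fold changes of 0.95 ± 0.26 in OC+SM against YC (edgeR adjusted p = 0.017) and 1.15 ± 0.26 in OC against YC (adjusted p = 0.00929). Its relative Wnt10a, named after its values had been seen, gave 0.93 ± 0.29 in OC+SM against YC (adjusted p = 0.0292) and 0.86 ± 0.29 in OC against YC, where it was not called.

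Of 19 commonly used target genes tested, 0 were called higher and 2 lower in OC against YC (10.5%, beside 11.3% of all genes tested). In OC+SM against YC 2 were called higher and 3 lower (26.3%, beside 22.4%), so both shares were near those of genes at large. Among those called, Ccnd2, a cyclin of dividing granulosa cells, fell. It stood at 161, 231 and 266 CPM in OC+SM, at 210.3, 250.1 and 273 CPM in OC and at 319, 355 and 392 CPM in YC, with no overlap between either aged group and YC. Ccnd2 gave log2 fold changes of -0.67 ± 0.09 in OC+SM against YC (edgeR adjusted p = 1.8e-05) and -0.54 ± 0.09 in OC against YC (adjusted p = 0.000252). Mycn, a growth-promoting transcription factor gene, fell by 0.72 ± 0.17 in OC+SM against YC and by 0.91 ± 0.18 in OC against YC. Bambi, which codes for a decoy receptor of the TGF-β family, rose by 0.42 ± 0.08 in OC+SM against YC. Granulosa marker sums were lower in the same groups as Ccnd2, and their part was not tested.

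The remaining named genes come from several parts of the pathway, among them the receptors, the destruction complex, the nuclear factors and other branches. In OC against YC, Plcb4, a phospholipase gene of the calcium branch, rose by 0.55 ± 0.09, the co-repressor gene Tle2 by 0.70 ± 0.15, the calcium kinase gene Camk2g by 0.27 ± 0.07 and the small GTPase gene Rhoa by 0.24 ± 0.06, while Camk2d fell by 0.30 ± 0.07. In OC+SM against YC, Tspan12, a partner of Fzd4 at the membrane, rose by 0.71 ± 0.12, with all OC+SM libraries above all YC libraries, and Camk2g by 0.31 ± 0.07. Celsr1, a cadherin of planar cell polarity, fell there by 0.79 ± 0.16, the cytoskeletal linker gene Macf1 by 0.37 ± 0.08, the tankyrase gene Tnks by 0.32 ± 0.08 and Camk2d by 0.28 ± 0.07.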

How the data were processed

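Per the labels' protocols, total RNA of each ovary was made into libraries with the QuantSeq 3′ kit, which reads the 3′ end of a transcript. Per the submitters' processing notes, GRCm39 was the build and the tools included RSEM 1.3.3, STAR 2.7.9a and FastQC 1.9. Annotation and strand setting: not given in the sources used here, so overlapping or antisense genes may share reads. The authors deposited, per the file headers, TPM values and expected counts, in which RSEM shares out reads that match several genes. The deposited TPM values are divided by gene length, which does not suit 3′ tags, and served only as an alternative.

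Expected counts were rounded to whole numbers, filtered with the edgeR rule for low counts (16959 genes left), scaled by TMM (factors 0.94 to 1.07) and tested by edgeR quasi-likelihood (version 4.0.16, in R 4.3.3). The fit was two-sided and held all 18 libraries, with 3 group means. Benjamini-Hochberg adjustment ran over all genes tested, and calls needed an adjusted p under 0.05. Intervals are 95%. The fit was first tested on simulated counts. Symbols matched 52083 of 55416 gene identifiers. A CPM stood for 9 to 20 counts. Over 153 pairs of libraries, counts differed by a chi-square of at least 4.04 per degree of freedom, beyond sampling noise.

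All 48 listed genes are accounted for. Members called in any comparison are given in full, and of the other pathway genes up to 10 called with the smallest p in each comparison are named. The members, lists and alternatives were chosen with earlier results of these data known. Marker lists covered surface epithelium, granulosa, luteal, theca, stromal, smooth muscle, endothelial, oocyte, macrophage, T and NK, and oviduct cells. Alternatives were DESeq2 1.42.0, RLE factors, 2 other filters, limma 3.58.1 on log2(TPM + 1) and log2(TPM + 0.1), only the 12 libraries compared, thinning to the shallowest library, a replicate block and libraries left out.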

Additional observations from a re-analysis of the deposited data

Results flagged for a closer look

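Dixon's criterion at 95% was applied to the lowest and the highest library of each member in each group of 6. It was passed in 7 of 129 groups, where chance gives about 6 with both ends counted. In all 7 the lowest library stood apart, and in none the highest. The YC 3 library was the lowest for 3 of them: Wnt6 at 21.63 CPM (next 91.3), Sfrp1 at 62.74 CPM (next 98.3) and Frzb at 7.244 CPM (next 14.9). It also had the lowest smooth muscle and pericyte sum of its group, 946 CPM, and the highest theca and interstitial sum, 1431 CPM. OC+SM 6 was the lowest for Wnt4 at 324.6 CPM (next 619.9), with the lowest blood endothelium sum of all libraries, 228 CPM, and the highest surface epithelium sum, 202 CPM. OC+SM 2 was the lowest for Fzd7 at 4.09 CPM (next 6.53) and Dkk3 at 16.36 CPM (next 20.1), and OC 2 for Axin1 at 23.98 CPM (next 26.0). Sfrp4 in OC+SM did not pass the criterion, with OC+SM 6 at 65.2 CPM, the next library at 433.7 CPM and the highest at 870.2 CPM.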

How the results depend on the processing

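Of 20 called member comparisons, 14 kept their call in all 22 alternatives, and none changed sign. The 6 that lost it in some were Wnt5a, Wls and Lrp5 in OC against YC and Fzd1, Lrp5 and Apc in OC+SM against YC. Of 109 uncalled ones, 13 gained a call in at least 1 alternative. In OC+SM against OC, DESeq2 called 663 genes and 1 member, the fit of only the 12 libraries compared 41 genes, and the fit without YC 3 and OC+SM 6 483 genes and 1 member, against 176 genes and 0 members. Limma on either TPM scale called 1 member there. Leaving out 1 library at a time gave 32 to 598 genes and 0 to 3 members in OC+SM against OC, 1512 to 1771 genes and 9 to 11 members in OC against YC, and 3071 to 3900 genes and 7 to 12 members in OC+SM against YC. The causes were not tested. Limma on log2(TPM + 1) gave fewer higher calls: 559 higher and 1105 lower genes in OC against YC (members 2 and 5) and 1365 and 2010 in OC+SM against YC (members 3 and 9), against 890 and 1022 and 1954 and 1841 with edgeR.

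The groups share replicate numbers, but the labels do not say that a number pairs mice, and same-numbered libraries correlated at -0.118 to 0.074, and 3 of 18 comparisons had the library closest to its own number. With the replicate block, edgeR called 139, 1756 and 3535 genes and 0, 10 and 9 members in OC+SM against OC, OC against YC and OC+SM against YC. Low members such as Wnt5b, Wnt9a, Rnf43 and Sfrp2, with 5 to 107 expected counts in a library, had wide intervals, and Sfrp4, with 1 library far from the rest, the widest.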

Other observations

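Marker lists not given above held these values. Of 8 macrophage genes 1 was called higher in OC against YC (12.5%, beside 11.3% of all genes). In OC+SM against YC 1 was called lower (12.5%, beside 22.4%). Macrophage sums were 178.6 to 214.5 CPM in OC+SM, 167.5 to 239 CPM in OC and 150.7 to 252 CPM in YC. Of 2 T and NK cell genes tested, 1 was called higher in each comparison with YC. Sums over the 6 listed genes were 3.81 to 6.82 CPM in OC+SM, 3.38 to 6.59 CPM in OC and 1.17 to 3.03 CPM in YC. Of 4 oviduct epithelium genes tested, 1 was called lower in each comparison with YC. Sums over the 8 listed genes were 14.6 to 24.4 CPM in OC+SM, 12.3 to 19.7 CPM in OC and 14.3 to 26.7 CPM in YC. Pax8 was at 0 in OC and YC. Of 12 surface epithelium genes, 6 were called higher and 1 lower in OC+SM against YC, and 1 higher and 2 lower in OC against YC. Surface epithelium sums were 135 to 202 CPM in OC+SM, 124 to 151 CPM in OC and 120.1 to 139 CPM in YC.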
